A study of Mus musculus with 6 samples.

Results

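The L1, contactin and NCAM adhesion molecules are neuronal cell surface proteins built from immunoglobulin and fibronectin type III domains. The 9 genes described are Chl1, L1cam, Nrcam and Nfasc of the L1 family, the contactins Cntn1, Cntn2 and Cntn4, and Ncam1 and Ncam2. They were followed through every array probe annotated with one of these symbols, which gave 23 of 45281 probes and 9 of 22491 gene symbols. Messenger RNA was measured in cultured mouse cortical neurons of strain C57BL/6J and genotype Dicerflox/flox, so both groups carry floxed Dicer alleles. No sample is described as having received a Cre recombinase. The 3 control arrays came from neurons given a control lentivirus, and the 3 knockdown arrays from neurons given one directed against the microRNA miR-27b. Both viruses were used at a multiplicity of infection of 5, and the neurons were at day 14 in culture. The series describes 3 neuronal preparations. Arrays of the same replicate number are taken here as the same preparation, which the sample labels do not state. The age and sex of the source animals are not stated in the labels.

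L1 family proteins span the membrane, bind one another on facing cells and bind ankyrin through their cytoplasmic tails, which ties them to spectrin under the membrane. Contactins have no cytoplasmic tail and are held by a lipid anchor, so they signal through partners such as the contactin-associated proteins. NCAM promotes adhesion between like molecules, and long chains of polysialic acid added by the enzymes ST8SIA2 and ST8SIA4 weaken that adhesion in young neurons. All 3 groups are known for axon growth and bundling of axons. Some of these molecules, not all, later help organise the axon initial segment, the node of Ranvier or the synapse.

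The targeted microRNA is shown first, because the comparison rests on it. The arm that the lentivirus was aimed at is not stated in the labels, so both mature arms are printed from RefSeq (GRCm38.p6, plus strand), with the seed, bases 2 to 8, in capitals. They lie at chr13:63300760-63300780 and chr13:63300718-63300739.
mmu-miR-27b-3p: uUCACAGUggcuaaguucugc
mmu-miR-27b-5p: aGAGCUUAgcugauuggugaac
No transcript sequences of the members were used here, so sites matching these seeds were not sought. No probe on the array is named for miR-27b, and its level was not measured.

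Across the arrays, 17498 to 19163 probes were detected (detection p under 0.05), or 38.6% to 42.3%, and with 3 arrays a group precision is limited throughout. Spearman correlations between arrays ran from 0.957 to 0.989 over the 18627 tested probes, and knockdown replicate 3 had the fewest detected probes and the lowest mean deposited intensity, at 669 against 709 to 788. Of 9 neuron markers 7 were tested, while the probes of Snap25 and Nefl were detected on no array. Among those tested, 3 neuron markers fell, including the calcium sensor gene Syt1 at -1 on the log2 scale, and 1, Stmn2, rose by 0.30 (limma adjusted p = 0.0391, or 0.0669 with preparation as a block). The neuron markers summed, in normalised intensity units, to 100000 to 102000 in controls and 82000 to 87600 after knockdown. That sum is weighted to bright probes such as that of Syt1, at a mean log2 of 14.82 in controls and 13.82 after knockdown. The median difference of the neuron markers was 0.11, and Tubb3, Map2 and Elavl4 differed by 0.17, 0.11 and 0.24 without passing. Astrocyte markers were present, with 4 of 8 tested genes falling after knockdown and 0 rising (limma, also 0 at an unadjusted p under 0.05), and a median difference of -0.75. The falls were of Gfap (-1.83), Aqp4 (-1.29), Aldoc (-1.23) and Slc1a2 (-1.07). Aldh1l1, Slc1a3 and Sox9 differed by only -0.09, -0.13 and -0.07 and did not pass. With the block Gja1 was lower too (limma adjusted p = 0.0275 against 0.0995). The astrocyte sum was 24600 to 33700 in controls and 18400 to 23000 after knockdown. Of 10 oligodendrocyte lineage genes on the array 4 were tested, summing to 8290 to 11100 and 4820 to 7730, and none passed in either direction by limma (1 was lower and 0 higher at an unadjusted p under 0.05). With the block 2 of them were lower, Olig1 at -0.63 (limma adjusted p = 0.0172 against 0.0591) and Cnp at -0.46 (0.0331 against 0.261). Mog, Mag, Mobp, Olig2 and Sox10 were detected on no array. Of 10 microglial genes 1 was tested, Aif1, at 45.4 to 68.8 in controls and 72.8 to 80.9 after knockdown. It did not pass by limma, though it was higher at an unadjusted p under 0.05. Csf1r, Cx3cr1 and Trem2 were detected on no array, and C1qa and P2ry12 on at most 2. Vascular and fibroblast genes (4 of 10 tested) summed to 836 to 1960 and 879 to 1550, and progenitor genes (5 of 8 tested) to 1550 to 2090 and 1660 to 2430. By limma 0 genes of either list passed, and at an unadjusted p under 0.05 there were 1 higher and 1 lower in the first and 1 higher in the other. With the block Pecam1 of the first was lower, at -0.38 (limma adjusted p = 0.0343 against 0.393), and Nes of the other higher, at 0.57 (0.0248 against 0.074). In bulk RNA, fewer cells of a type and less RNA per cell cannot be told apart. The part that these shifts have in the members' values was not tested.

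Transcripts of this family moved in both directions after miR-27b knockdown. Chl1, Cntn2 and 1 probe of Ncam1 rose by 0.48 to 0.53 on the log2 scale, and Nrcam and another probe of Ncam1 fell by 0.44 and 0.56. L1cam, Nfasc, Cntn1, Ncam2 and the last probe of Ncam1 did not pass the threshold, and Cntn4 was not detected. Of the 11 member probes tested, 3 were higher and 2 lower at a limma adjusted p under 0.05, where 27.4% of all 18627 tested probes passed in either direction, 13.9% higher and 13.6% lower. In a fit that blocks on preparation (a replicate block) these 5 passed too, where 27.7% of all tested probes did. The median difference of the 11 was 0.10, against -0.0074 over all tested probes, and the median absolute difference 0.44 against 0.25. The groups did not overlap for 6 of the 11, where 45.6% of all tested probes had groups that did not overlap. The members were chosen with earlier results of these data known. These comparisons with all probes therefore describe the members and test nothing about the family.

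**Figure D1:**
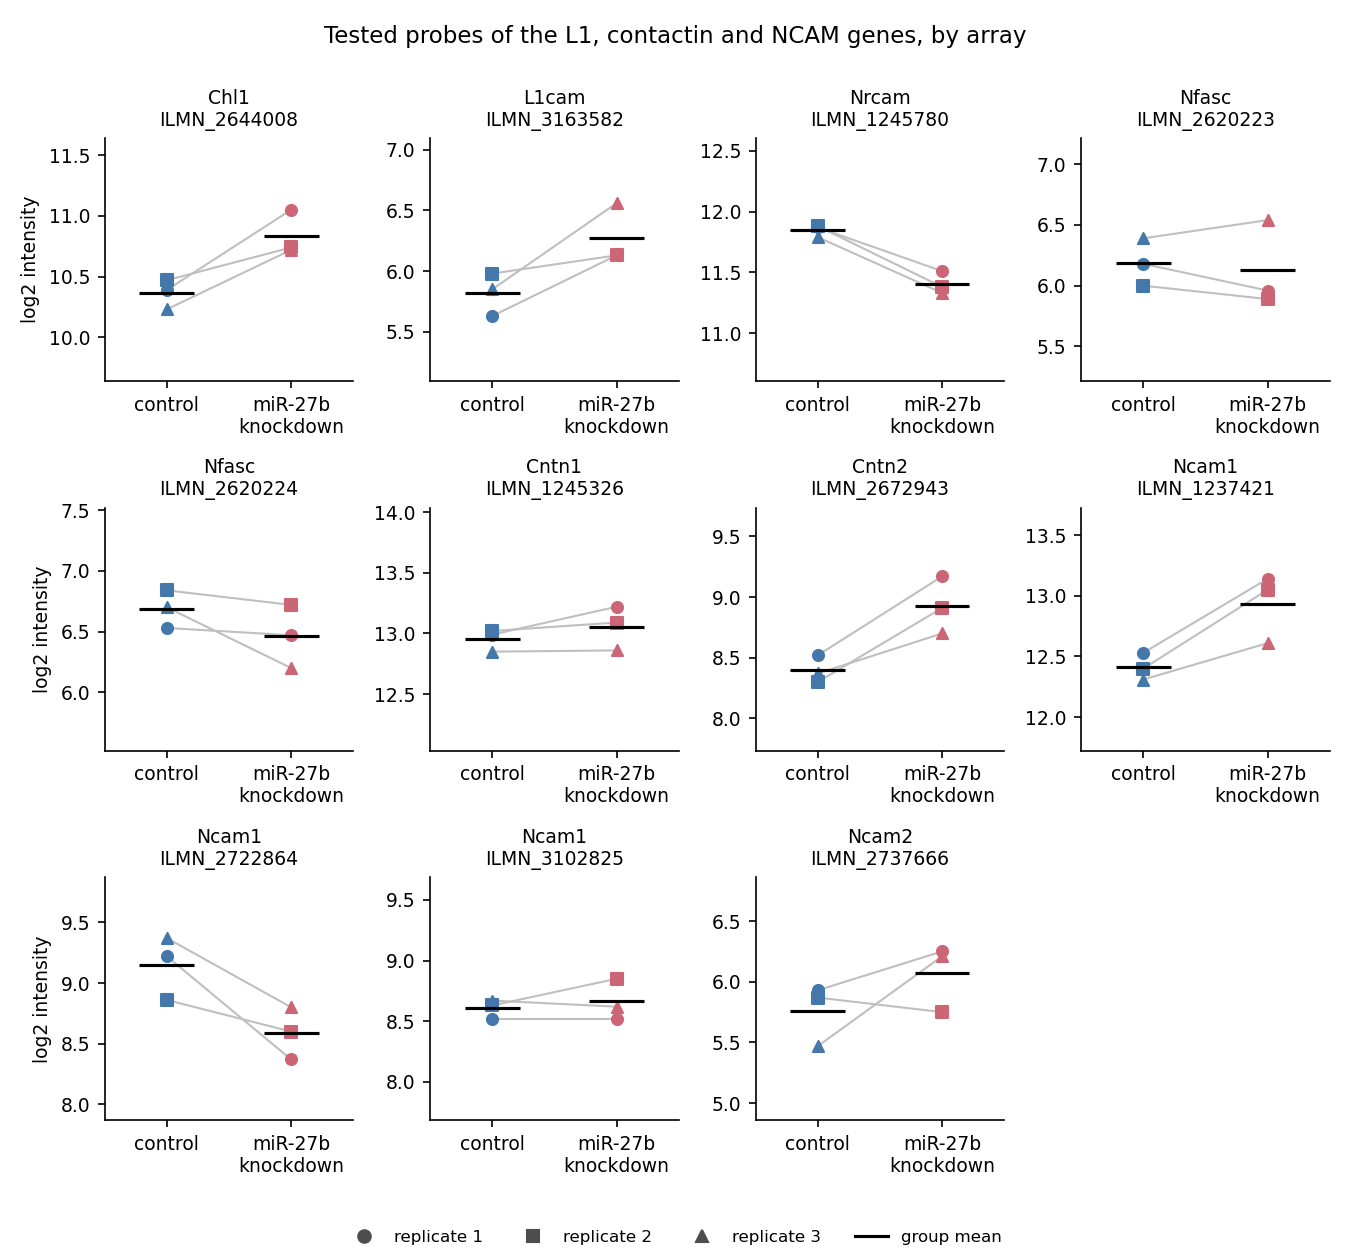
Normalised log2 intensity of the 11 tested member probes on each array, with 1 panel per probe, a symbol for each replicate number, grey lines joining arrays of the same number and black bars for group means; every panel spans the same range of log2 units. The 3 knockdown arrays lie above all controls for Chl1, L1cam, Cntn2 and Ncam1 probe ILMN_1237421, and below them for Nrcam and Ncam1 probe ILMN_2722864.

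Many probes of these genes were not detected, which was also so over the whole array, where 18627 of 45281 probes were tested. In all, 12 of the 23 failed the detection filter (detection p under 0.05 on at least 3 arrays), and 11 of those were detected on no array. Their deposited intensities lay between 64.8 and 132, while undetected probes anywhere on these arrays reached 125 to 145. Cntn4, a contactin known as BIG-2 that binds amyloid precursor proteins, had 3 probes, all undetected on all 6 arrays. It therefore has no tested value. The other untested probes were 3 of the 4 Chl1 probes, 3 of the 4 Cntn2 probes, 2 of the 4 Nfasc probes and 1 of the 2 Ncam2 probes. Of these, Chl1 probe ILMN_2687300 was detected on control replicate 1 alone. The value of each detected member other than Nfasc and Ncam1 thus rests on 1 probe.

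Nrcam, an L1 family molecule of axons, nodes of Ranvier and initial segments, fell, and of the tested member probes it had the smallest p. Its deposited intensities were 4060, 4090 and 3440 in control replicates 1 to 3 and 3030, 2860 and 2360 in the knockdown replicates. After normalisation the log2 intensities were 11.87, 11.88 and 11.79 in controls and 11.51, 11.38 and 11.33 after knockdown. The groups did not overlap, and the spread within each (SD 0.05 and 0.09, n = 3 per group) was small beside the gap. The difference was -0.44 (SE 0.088, 95% interval -0.65 to -0.23, limma adjusted p = 0.013), a ratio of 0.736, and it was -0.36, -0.50 and -0.46 in the 3 preparations. Without control replicate 1 it was -0.43 with an adjusted p of 0.0523.

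Chl1, the close homologue of L1 that guides migration and dendrite orientation of cortical neurons, rose. The log2 intensities of its detected probe, ILMN_2644008, were 10.39, 10.47 and 10.23 in controls and 11.05, 10.74 and 10.72 after knockdown. All knockdown arrays lay above all controls, with knockdown replicate 1 highest. The difference was 0.48 (SE 0.12, 95% interval 0.18 to 0.77, limma adjusted p = 0.0315), or 1.39-fold. The probe was higher in 3 of 3 preparations, by 0.66, 0.27 and 0.50.

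L1cam, the founding member of the family and a promoter of axon growth, lay close to the detection limit. Its deposited intensities were 121, 137 and 128 in controls and 145, 147 and 175 after knockdown, and it was undetected on control replicate 1. In log2 units these arrays read 5.63, 5.98 and 5.85, against 6.13, 6.13 and 6.56. The groups did not overlap, but the difference of 0.45 (SE 0.16, 95% interval 0.08 to 0.82) missed the threshold (limma adjusted p = 0.0734). Without background correction it was 0.23.

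Nfasc encodes neurofascin, whose neuronal form is anchored to ankyrin G at the axon initial segment and whose glial form sits at the paranode. Neither of its tested probes passed, and in both the groups overlapped. Probe ILMN_2620224 read 6.53, 6.84 and 6.70 in controls and 6.47, 6.72 and 6.20 after knockdown. Its difference was -0.23 (SE 0.16, 95% interval -0.60 to 0.14, limma adjusted p = 0.324). Probe ILMN_2620223 read 6.18, 6.00 and 6.39 in controls and 5.96, 5.89 and 6.54 after knockdown, with knockdown replicate 3 highest of the 6. The difference was -0.06 (95% interval -0.53 to 0.40, limma adjusted p = 0.844). Both intervals include a fall as large as that of Nrcam. Which form each probe reads is not stated in the annotation.

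Cntn1, a contactin of axons that forms the paranodal complex with its associated protein, was bright and did not pass. It read 12.99, 13.02 and 12.85 in controls and 13.22, 13.09 and 12.86 after knockdown, so the groups overlapped. The difference was 0.10 (SE 0.12, 95% interval -0.17 to 0.38, limma adjusted p = 0.547), and its sign turned with median scaling, to -0.07. The upper end of that interval lies below the difference measured for Cntn2, but the interval of Cntn2, 0.20 to 0.86, overlaps that of Cntn1.

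Cntn2 encodes TAG-1, a contactin of growing axons in development that later gathers at the juxtaparanode, and its 1 detected probe rose. The annotation ties all 4 Cntn2 probes to the same reference transcript, and the other 3 were detected on no array. The detected probe, ILMN_2672943, read 8.52, 8.30 and 8.37 in controls and 9.17, 8.91 and 8.70 after knockdown. No knockdown array fell within the control range. The difference was 0.53 (SE 0.14, 95% interval 0.20 to 0.86, limma adjusted p = 0.0308), or 1.44-fold, and preparations 1 to 3 gave 0.65, 0.61 and 0.33. The difference between the changes of Cntn1 and Cntn2 was not tested.

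Ncam1, the gene of the neural cell adhesion molecule, had 3 tested probes, and these did not move together. Probe ILMN_1237421 rose, from 12.53, 12.40 and 12.31 in controls to 13.14, 13.05 and 12.61 after knockdown. Probe ILMN_2722864 fell, from 9.22, 8.86 and 9.37 to 8.37, 8.60 and 8.80. The third, ILMN_3102825, read 8.52, 8.63 and 8.67 in controls and 8.52, 8.85 and 8.62 after knockdown, with overlapping groups.

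The Ncam1 differences were 0.52 (SE 0.16, 95% interval 0.15 to 0.89, limma adjusted p = 0.0494) for the probe that rose and -0.56 (SE 0.17, 95% interval -0.96 to -0.16, limma adjusted p = 0.0496) for the probe that fell. Both stood just inside the threshold. Each had the same sign in all 3 preparations, at 0.61, 0.65 and 0.29 for the first and -0.85, -0.26 and -0.57 for the other. For ILMN_3102825 the difference was 0.06 (95% interval -0.21 to 0.33, limma adjusted p = 0.729). The annotation ties the rising probe and ILMN_3102825 to the same reference transcript and the falling probe to another, but the probe sequences and exons were not used here.

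Whether probes of 1 gene changed unequally was tested on their log2 ratio within each array, for all 4 pairs of tested probes that share a gene. The ratio of ILMN_1237421 to ILMN_2722864 was higher after knockdown by 1.08, and by 1.47, 0.91 and 0.86 in the 3 preparations. A two-sided exact permutation test of 3 against 3 arrays gave p = 0.1, the smallest it can give, and 0.2 adjusted over the 4 pairs. The ratio of ILMN_2722864 to ILMN_3102825 changed by -0.62 (exact permutation p = 0.1) and that of ILMN_1237421 to ILMN_3102825 by 0.46 (exact permutation p = 0.2). The Nfasc pair changed by 0.16 (exact permutation p = 0.8). This design cannot reach 0.05 with such a test.

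Ncam2, also called OCAM and known from olfactory axons, was dim, detected on 2 arrays of each group. Its tested probe read 5.93, 5.87 and 5.47 in controls and 6.25, 5.75 and 6.21 after knockdown, and the groups overlapped. The difference was 0.31 (SE 0.18, 95% interval -0.13 to 0.75, limma adjusted p = 0.253), or 0.16 without background correction, and it was below 0 in preparation 2.

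**Figure D2:**
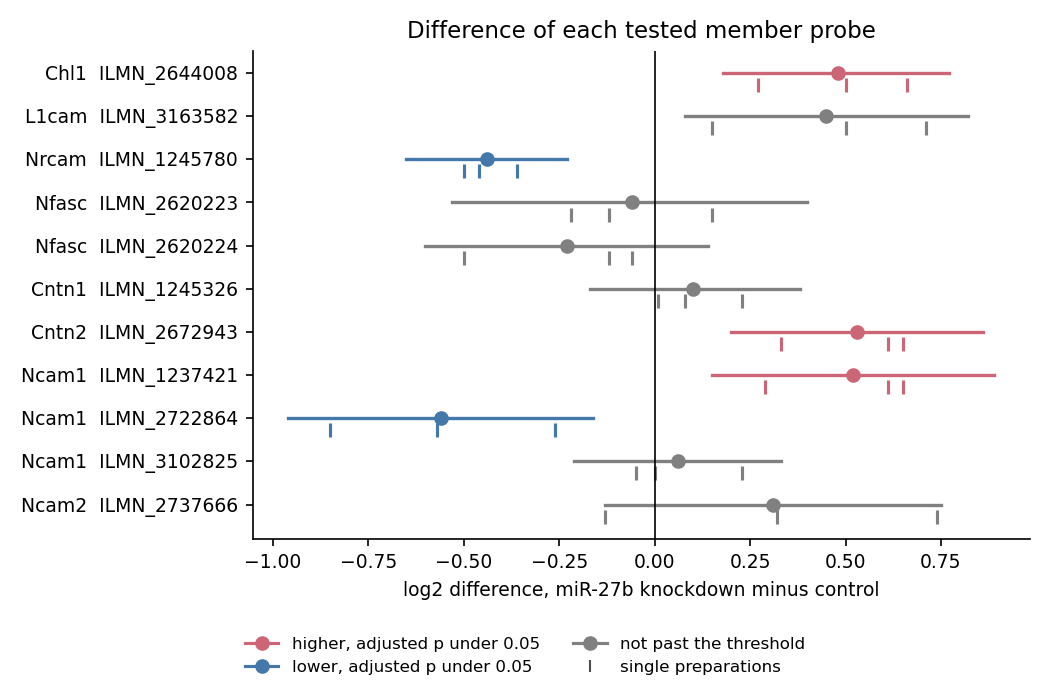
Difference between miR-27b knockdown and control for the 11 tested member probes on the log2 scale, with dots for the limma estimate, lines for its 95% interval (n = 3 per group) and ticks for the single preparations. Nrcam and Ncam1 probe ILMN_2722864 lie below 0, at -0.44 and -0.56, and Chl1, Cntn2 and Ncam1 probe ILMN_1237421 lie above it, at 0.48 to 0.53.

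Many other probes on these arrays moved as far. For Nrcam 72.5% of all tested probes had a smaller absolute difference, for Chl1 75.4%, for Cntn2 79.5%, and for the rising and falling Ncam1 probes 78.8% and 81.5%. The calls also rest on few arrays. With 1 array left out, 16.1% to 23.5% of all tested probes passed, against 27.4% with all 6. The 3 rises passed with all 6 arrays and without knockdown replicate 3. Without any other single array none of them passed, while the differences of Chl1, Cntn2 and the rising Ncam1 probe kept their sign at 0.37 to 0.53, 0.41 to 0.64 and 0.42 to 0.68. With median scaling of the arrays in place of quantile normalisation those rises were 0.36, 0.47 and 0.36 and did not pass. The share of higher among all calls was then 39% against 50.5%, the median of all probes was -0.0812, and the 2 falls still passed at -0.58 for Nrcam and -0.63 for Ncam1. The falling Ncam1 probe did not pass without control replicate 1 or 3 or without knockdown replicate 1 or 2, with differences of -0.53, -0.45, -0.45 and -0.57. Knockdown replicate 3 had the lowest knockdown value of Nrcam, Chl1, Cntn1, Cntn2, Nfasc probe ILMN_2620224 and the rising Ncam1 probe, and the highest of L1cam, Nfasc probe ILMN_2620223 and the falling Ncam1 probe.

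**Figure D3:**
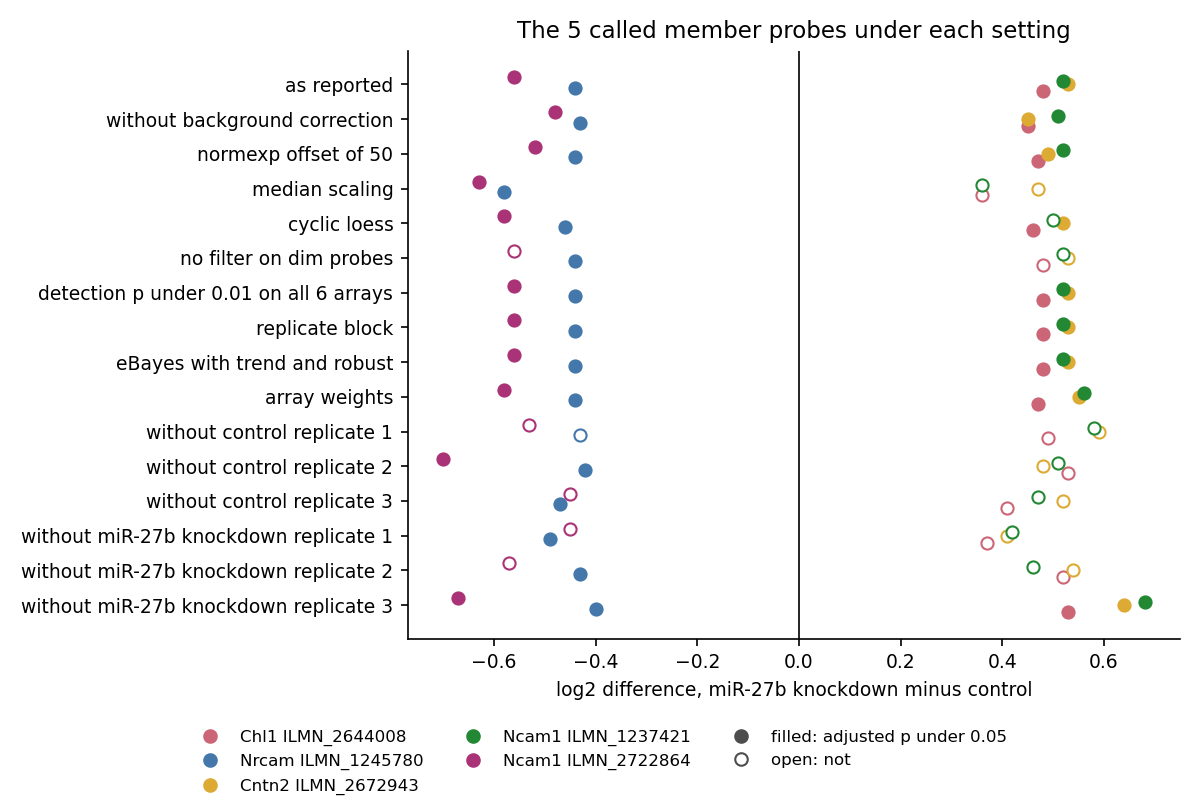
Log2 difference of the 5 called member probes (x axis) under each processing setting (y axis), with filled points where the adjusted p was under 0.05. All signs hold in the settings shown, and the points of Chl1, Cntn2 and Ncam1 probe ILMN_1237421 are open in every setting that leaves out 1 array except that without knockdown replicate 3.

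Of the member genes with a called probe, 3 have a single RefSeq promoter window (GRCm38.p6). The 250 bases before their start are shown because Chl1 and Cntn2 rose together while Nrcam fell. Capitals mark matches on either strand to GGGCGG (the GC box), CCAAT, TGACGTCA (the cyclic AMP response element) and TATAAA, which do not overlap here.
Nrcam, chr12:44328635-44328884, plus strand: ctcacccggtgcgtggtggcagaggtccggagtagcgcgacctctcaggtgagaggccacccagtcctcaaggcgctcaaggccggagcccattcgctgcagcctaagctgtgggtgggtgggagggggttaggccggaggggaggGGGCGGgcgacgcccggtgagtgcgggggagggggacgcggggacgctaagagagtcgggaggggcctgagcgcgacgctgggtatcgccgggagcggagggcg
Chl1, chr6:103510626-103510875, plus strand: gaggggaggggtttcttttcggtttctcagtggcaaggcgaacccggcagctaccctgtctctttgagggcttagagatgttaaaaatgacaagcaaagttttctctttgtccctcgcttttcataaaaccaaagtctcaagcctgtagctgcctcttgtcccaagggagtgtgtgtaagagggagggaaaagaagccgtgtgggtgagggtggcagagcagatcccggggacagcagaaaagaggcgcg
Cntn2, chr1:132542941-132543190, minus strand: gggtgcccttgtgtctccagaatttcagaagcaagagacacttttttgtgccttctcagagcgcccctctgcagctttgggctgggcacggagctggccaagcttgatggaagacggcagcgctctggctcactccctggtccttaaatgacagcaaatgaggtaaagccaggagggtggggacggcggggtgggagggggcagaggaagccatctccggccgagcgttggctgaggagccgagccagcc
Nrcam, which fell, holds 1 GC box and 25 CpG dinucleotides. Chl1 and Cntn2, which rose, hold none of the 4 motifs in this window and have 8 and 10 CpG dinucleotides, where the median of 32851 promoter windows is 6. Of all windows 32.7% hold GGGCGG, 33.8% CCAAT, 1.55% TGACGTCA and 12.4% TATAAA. St8sia2 and St8sia4, which also rose, hold 2 and 1 GC boxes and 15 and 19 CpG dinucleotides, and L1cam, Ncam2 and 1 of the 2 Nfasc windows, of genes that did not pass, also hold GC boxes. A window was matched for 8 of the 9 members, without Ncam1. These matches are descriptions of letters and not of bound sites.

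Both enzymes that add polysialic acid to NCAM rose, by 1.84 and 0.76 on the log2 scale. They were among the genes listed here with earlier results known, as were all lists that follow. St8sia2, the polysialyltransferase most active in young neurons, read 9.46, 9.52 and 10.52 in controls and 11.54, 11.57 and 11.91 after knockdown. Control replicate 3 stood above the other controls but below every knockdown array. The difference was 1.84 (SE 0.29, 95% interval 1.14 to 2.53, limma adjusted p = 0.00568). St8sia4, the other enzyme, read 10.17, 9.85 and 10.13 in controls and 10.81, 10.61 and 11.01 after knockdown, a rise of 0.76 (SE 0.14, limma adjusted p = 0.00959). Its other tested probe rose by 0.62 (SE 0.16, limma adjusted p = 0.0293).

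**Figure D4:**
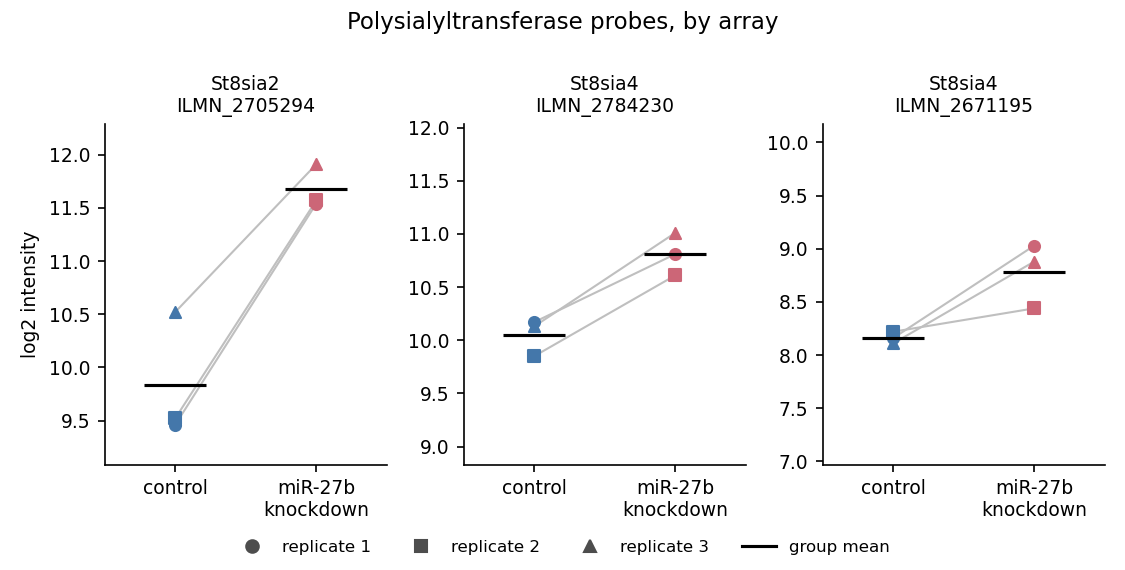
Normalised log2 intensity of the St8sia2 probe and both tested St8sia4 probes on each array, with a symbol for each replicate number, grey lines joining arrays of the same number, black bars for group means and the same span of log2 units in each panel. Every knockdown array lies above every control array in all 3 panels.

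Of the 7 listed polysialyltransferases and proteases that shed these adhesion molecules, 6 were tested, 3 rose, 0 fell (0 at an unadjusted p under 0.05) and 3 did not pass, with a median of 0.64. The median over all genes, each by its brightest detected probe, was 0.01, and 29.4% of the 11280 genes passed, 15.4% higher and 14% lower. The third that rose was the matrix protease gene Mmp9, from 6.38, 6.59 and 7.03 to 7.43, 7.54 and 7.51, a difference of 0.83 (SE 0.17, limma adjusted p = 0.0133; 0.52 without background correction).

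Of 16 tested ligands, co-receptors and signalling partners of the family 4 rose (where 15.4% of all genes did), 0 fell (1 was lower at an unadjusted p under 0.05) and 12 did not pass, with a median of 0.23. Cd24a, a small surface glycoprotein gene that interacts with L1 in neurons, rose by 1.16 (SE 0.27, limma adjusted p = 0.0222; 0.72 without background correction). Nrp1, the neuropilin that forms semaphorin receptors with L1, rose by 0.80 (SE 0.13, limma adjusted p = 0.00599), and its other probe by 0.91. Ptprg, a receptor phosphatase gene whose protein binds contactins, rose by 0.68 (SE 0.20, limma adjusted p = 0.0474; 0.41 without background correction). The fourth, Gap43, the growth cone protein gene linked to NCAM signalling, rose by 0.54 (limma adjusted p = 0.0075; named after its values were seen), or by 0.38 with an adjusted p of 0.148 under median scaling.

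Linkers that join L1 family tails to the cytoskeleton were followed by 1 probe per gene. Of 10 tested ankyrin, spectrin and related genes, 2 fell (where 14% of all genes did), 0 rose (0 at an unadjusted p under 0.05) and 8 did not pass, with a median of 0.06. Epb41l3, which encodes an adaptor between membrane proteins and spectrin, differed by -0.45 (SE 0.093, limma adjusted p = 0.0143), and its other probes by -0.41 (adjusted p = 0.169) and -0.67 (adjusted p = 0.0315, or 0.0734 with a replicate block). Sptb, a beta spectrin gene, had probes that moved apart. Probe ILMN_2909238 fell from 11.22, 11.26 and 11.30 to 10.69, 10.64 and 10.51, a difference of -0.65 (limma adjusted p = 0.00322). Probe ILMN_2660754 rose from 6.59, 6.95 and 6.83 to 9.07, 9.02 and 8.96, by 2.23 (SE 0.11, limma adjusted p = 0.000331).

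The ankyrin genes, named after their values were seen because L1 family tails bind their products, did not pass in the main fit by the probe that stands for each gene. Ank3, which encodes ankyrin G of the initial segment, differed by 0.20 (95% interval -0.03 to 0.44, limma adjusted p = 0.17). Ank2 differed by 0.22 (95% interval -0.02 to 0.46, limma adjusted p = 0.152). When eBayes was run with its trend and robust options, the limma adjusted p was 0.0422 for Ank2, which passed, and 0.0504 for Ank3. Another Ank2 probe, ILMN_3158444, differed by -0.69 (SE 0.19, limma adjusted p = 0.0405, or 0.051 with a replicate block).

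Among the other contactins and the contactin-associated proteins, 7 of 10 genes were tested, 1 rose, 0 fell (0 at an unadjusted p under 0.05) and 6 did not pass, with a median of -0.04. Over all genes 15.4% rose and 14% fell, so 1 rise among these is near the share of the whole array. Cntnap5b, a contactin-associated protein gene, rose by 1.29 (SE 0.29, limma adjusted p = 0.0187), from 5.81, 6.47 and 5.97 to 6.85, 7.38 and 7.88. It was detected on 2 of 3 control arrays, and its difference was 0.76 without background correction. Cntnap1, the paranodal partner of contactin-1, was detected on no array.

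Other neuronal immunoglobulin adhesion molecules split evenly, with 3 of 19 tested genes higher, 3 lower and 13 not passing, and a median of 0.05. Of all genes 15.4% were higher and 14% lower, so these counts are near the shares over the whole array. Icam5 (telencephalin), a dendritic adhesion molecule of the forebrain, had the largest fall of this list. It averaged 11.06 (SD 0.06, n = 3) in controls and 10.07 (SD 0.10, n = 3) after knockdown, with no overlap, a difference of -0.99 (SE 0.092, limma adjusted p = 0.00102). Nptn (neuroplastin) differed by -0.44 (limma adjusted p = 0.0179, or 0.0503 with median scaling). Thy1 differed by -0.29 (limma adjusted p = 0.041, or 0.0658 with preparation as a replicate block). Sdk1, an adhesion molecule of matching synaptic partners, rose by 0.80 (SE 0.12, limma adjusted p = 0.00438). Mdga1, which blocks neuroligin binding at synapses, rose by 0.64 (limma adjusted p = 0.00567; 0.36 without background correction), and the synaptic adhesion gene Cadm1 by 0.36 (limma adjusted p = 0.0321, or 0.501 with median scaling, where the difference was 0.19). The summed neuron and astrocyte markers given above were lower on the same arrays, while the median difference of the neuron markers was 0.11. The part of either in these changes was not tested.

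Some of these calls did not hold when 1 array was left out. Those fits called 16.1% to 23.5% of all tested probes, against 27.4% with all arrays. With 1 array left out, Ptprg and Cadm1 passed in 1 case of 6, that without control replicate 3, at 0.91 and 0.43 there and 0.56 to 0.74 and 0.31 to 0.36 otherwise, and Thy1 passed in 0 of 6, at -0.33 to -0.26. Cntnap5b did not pass without control replicate 1 or 3 or knockdown replicate 2 (1.15, 1.23 and 1.28), nor Cd24a without control replicate 2 or 3 (0.99 and 1.13). Epb41l3 did not pass without control replicate 1 or knockdown replicate 2 (-0.43 and -0.42). Nptn did not pass without control replicate 1 or 2 or knockdown replicate 2 (-0.42, -0.41 and -0.43). The differences of St8sia2, St8sia4, Mmp9, Nrp1, Gap43, Icam5, Sdk1, Mdga1 and Sptb probe ILMN_2909238 passed without any single array.

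By likeness over the 6 arrays, the probes closest to Nrcam were those of Atp6v1g2, Camk2d, Pcnx2, Sv2a and Dlgap2, with Pearson correlations of at least 0.9979. These correlations describe 6 arrays in 2 groups, and 73 probes of other genes had one above 0.99. The named probes were picked for likeness to one that fell, so a fall in each followed from that choice. Their differences ran from -0.43 for Sv2a to -1.12 for Pcnx2.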

How the data were processed

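Biotin-labelled cRNA made from 500 ng of total RNA was read on an Illumina bead array, per the labels' protocols. The deposited table holds intensity values without normalisation between arrays and a detection p-value for each, per the file headers, and scanner settings are not stated there. A second deposited table held intensity values within 0.00462 log2 units of quantile-normalised ones, and served as an alternative. Background was corrected by normexp from the detection p-values (limma 3.58.1, R 4.3.3, offset 16), followed by quantile normalisation and log2. All 18627 probes detected (p under 0.05) on 3 or more arrays were fitted with lmFit and eBayes (knockdown minus control). P-values were adjusted by Benjamini-Hochberg over all of them, with a threshold of 0.05, and the fit was tested on simulated data. Platform symbols of 937 probes were updated through RefSeq (GRCm38.p6), and 9497 probes had none.

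Each gene of the related lists was represented by its brightest detected probe. The rule named all member probes and, per list and direction, up to 3 genes past the threshold with the largest difference, with exceptions marked in the text. Members and lists were chosen with earlier results of these data known. Same-numbered arrays deviated together, though weakly (correlations 0.115, 0.215 and 0.227), and arrays of unlike numbers were not compared in this way. Replicate numbers were taken as preparations, which is an inference, and a block fit was run. Nothing in the labels says that these are separate animals, and p-values measure the spread between these arrays.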

Additional observations from a re-analysis of the deposited data

How the results depend on the processing

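The 5 member calls were recomputed under 17 other settings, and no called member changed sign. The 3 higher calls became 0 with median scaling and 0 with no filter on dim probes (limma; at an unadjusted p under 0.05, 2 and 4), where 45281 probes are adjusted together. The 2 lower calls became 1 with no filter and 1 with one probe per gene, which drops the falling Ncam1 probe by construction. With cyclic loess the rising Ncam1 probe had an adjusted p of 0.0555. Leaving out 1 array gave 0 to 3 higher and 0 to 2 lower member probes (at an unadjusted p under 0.05, 3 to 5 and 2), 8 to 11 and 2 to 5 genes of the related lists, and 1553 to 2227 and 1447 to 2150 of all probes. The counts of all probes and of related genes lower were lowest without control replicate 1. Counts also moved by over 1.5 times without knockdown replicate 2 (1673 of all probes higher and 3 related genes lower) and control replicate 2 (1667 of all probes lower). Median scaling called 1295 of all probes higher, so that 39.0% of calls were higher against 50.5%, and 3 related genes lower. The 5 related genes lower became 8 without background correction and 8 when detection p had to be under 0.01 on all 6 arrays. The series matrix values also gave 8, but they lie within 0.00462 log2 units of the values without background correction and are no separate check. The sign turned for Cntn1 with median scaling (-0.07), for Ncam1 probe ILMN_3102825 with median scaling (to 0.00 after rounding, just below 0) and without knockdown replicate 2 (-0.03), and for Nfasc probe ILMN_2620223 without control replicate 3, knockdown replicate 1 or knockdown replicate 2 (0.04, 0.02 and 0.06). With 1 array left out, these probes ranged from -0.03 to 0.13 and from -0.26 to 0.06. None of these passed in any setting, and the cause was not tested. The replicate block kept all 5 member calls, and among the probes standing for genes of the 5 related lists it ended the call of Thy1 (adjusted p = 0.0658) and added Nectin3 (0.0214), with no other call changed there. Among cell type markers it ended the call of Stmn2 and added Gja1, Cnp, Olig1, Pecam1 and Nes. Among further probes of listed genes it ended 1 call each of Ank2 and Epb41l3 and added 1 each of Cntnap2 (0.0349) and Gfap (0.0112). Dim members (L1cam, Nfasc, Ncam2) are limited by signal over background.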
